A study of Homo sapiens with 12 samples.

Results

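The RNA-seq of QGP-1 and BON-1 pancreatic neuroendocrine tumor (pNET) cells was examined for 10 genes that encode plasma membrane amino acid transporters or their partner subunit, out of the 28008 genes counted in each line. They were taken by symbol (SLC7A5, SLC3A2, SLC1A5, SLC1A4, SLC38A1, SLC38A2, SLC7A1, SLC7A11, SLC43A1 and SLC6A9), all 10 were in both tables, and all 10 passed the filter on low counts in both lines. QGP-1 and BON-1 are established human cell lines, both carrying a doxycycline (DOX)-inducible short hairpin against MUC1 (tet-MUC1shRNA) in all groups. Each line was grown with vehicle (0.1% DMSO) or with 500 ng/mL DOX for 7 days, and each of the 4 groups held 3 libraries, 12 in all. MUC1-C, the C-terminal subunit encoded by MUC1, is studied as a driver of growth and self-renewal, and the comparison asks which transcripts change when it is silenced. Libraries with a control hairpin and DOX were not analysed here, so an effect of DOX itself cannot be told apart from that of the hairpin. Whether the DOX groups also received DMSO is not given in the sources used here, so an effect of DMSO cannot be told apart either. QGP-1 cells were kept in RPMI medium and BON-1 cells in DMEM/F-12, which received more added L-glutamine. The line and its medium therefore cannot be told apart in a comparison between lines. Whether the libraries of both lines were prepared together is not given in the sources used here. The study describes the 3 libraries of a group as biological replicates, and the labels add no detail on how the cultures were handled, so p-values here measure the spread between these libraries.

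Amino acids cross the plasma membrane on carriers with overlapping substrates. SLC7A5 (LAT1) joins SLC3A2 (4F2hc, CD98), which brings it to the cell surface, and takes in leucine and other large neutral amino acids in exchange for glutamine. SLC1A5 (ASCT2) and its paralog SLC1A4 (ASCT1) exchange small neutral amino acids, with glutamine among the substrates of SLC1A5, and SLC38A1 (SNAT1) and SLC38A2 (SNAT2) carry glutamine and alanine inward with sodium. SLC7A1 (CAT1) carries arginine and lysine, SLC7A11 (xCT), which also binds SLC3A2, takes in cystine for glutamate, SLC43A1 (LAT3) carries leucine and related amino acids, and SLC6A9 (GLYT1) carries glycine. Leucine and arginine supply is read by mTORC1, the growth-promoting kinase complex, and shortage of amino acids raises several of these transporters through the factor ATF4.

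Depth per library ranged from 38224144 to 50525926 counts for QGP-1 and from 15981954 to 28484324 counts for BON-1. DOX replicate 1 of QGP-1 stood apart, with 16602 genes above 0 at 49002964 counts, against 17743 to 19628 genes in the other 5 libraries of the line. Neuroendocrine transcripts were abundant in both lines, with SCG2, a secretory granule protein, at 2784 CPM (counts scaled to a common library size by TMM) in QGP-1 vehicle cells and CHGA, chromogranin A, at 8104 CPM in BON-1 vehicle cells, whereas NCAM1 was near 0 in BON-1 cells (0.0607 CPM). MUC1, the target of the hairpin, was at 7.19, 5.81 and 5.65 CPM in the vehicle libraries of QGP-1 and at 0.705, 1.04 and 0.744 CPM with DOX. In BON-1 cells it was at 20.6, 20.7 and 15.6 CPM with vehicle and at 1.48, 2.65 and 3.97 CPM with DOX. The groups did not overlap in either line, and the log2 fold change was -2.91 (SE 0.226, n = 3 per group, edgeR adjusted p = 8.24e-07) in QGP-1 and -2.79 (SE 0.218, n = 3 per group, edgeR adjusted p = 6.51e-11) in BON-1 cells.

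Of the 10 transporters, SLC38A1, SLC38A2 and SLC7A11 rose with DOX in both lines, and SLC1A5 and SLC43A1 fell in both, although in QGP-1 cells SLC1A5 (0.04 and 0.44) and SLC43A1 (0.14 on the second) turned positive on rescaled and unrescaled TPM, scales that also raised the median of all genes. SLC1A4 rose in QGP-1 cells alone among the calls, SLC7A5 and SLC3A2 fell in BON-1 cells alone among the calls (both lost, as was that of SLC1A5 in BON-1 cells, with an offset for transcript GC and length), and SLC7A1 and SLC6A9 were called in neither. Without the filter on low counts SLC7A5 (0.21, edgeR adjusted p = 0.0231) and SLC7A1 (0.19, edgeR adjusted p = 0.0402) were called higher in QGP-1 cells, and on rescaled TPM SLC7A5, SLC7A1 (0.50) and SLC3A2 (0.34) were. A gene was called at an edgeR adjusted p below 0.05, adjusted over all genes tested, with no minimum fold. In QGP-1 cells 4 members were higher and 2 lower, where 17.3% of the 15089 genes tested were called higher and 17.7% lower. In BON-1 cells 3 were higher and 4 lower, where 17% of the 14625 genes tested were called higher and 18.3% lower. The median log2 fold change of the 10 was 0.19 in QGP-1 and -0.14 in BON-1 cells, beside -0.01 over all genes in each line. The members' CPM did not overlap between vehicle and DOX for 6 of 10 in QGP-1 cells, beside 46.7% of all genes tested, and for 7 of 10 in BON-1 cells, beside 46.3%. In the fit of the counts none of the 10 changed by 2-fold or more in either line. In these bulk libraries, fewer cells that express a transporter and less of its RNA per cell cannot be told apart.

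**Figure D1:**
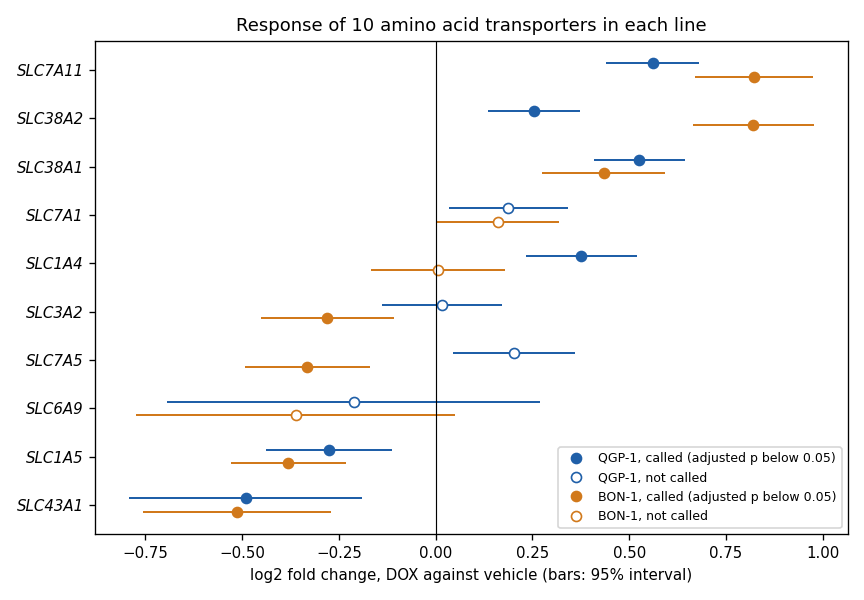
Log2 fold change of each transporter with DOX against vehicle (x axis) in QGP-1 (blue) and BON-1 (orange) cells, with bars for the 95% interval from the edgeR standard error and filled points for genes called at an adjusted p below 0.05. SLC7A11, SLC38A2 and SLC38A1 sit to the right of 0 in both lines, SLC1A5 and SLC43A1 to the left in both, and SLC7A5 lies at 0.20 in QGP-1 and at -0.33 in BON-1; on the rescaled TPM scale SLC1A5 in QGP-1 turns to 0.04.

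The sodium-coupled glutamine carriers and their promoters come first, since both rose in both lines. SLC38A1 and SLC38A2 are neighbours on chromosome 12 (GRCh38, minus strand, SLC38A1 at chr12:46183063-46270017 and SLC38A2 at chr12:46358188-46372773, both protein-coding). Shown 5′ to 3′ on the gene's strand are the 140 bases before the RefSeq start (GRCh38.p14) of these paralogs and of SLC7A5 (chr16:87830023-87869507, minus strand), the member with the most negative interaction of line and DOX. Capitals mark the E-box CACGTG, the site recognised by MYC and related factors, which was searched on both strands with the ATF4 composite element TGATGNAA and the antioxidant response element TGACNNNGC in the 250 bases before the start.
SLC38A1 (chr12:46267988-46268127): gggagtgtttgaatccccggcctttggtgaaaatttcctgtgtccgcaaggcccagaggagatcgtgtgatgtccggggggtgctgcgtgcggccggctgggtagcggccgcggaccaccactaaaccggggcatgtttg
SLC38A2 (chr12:46372774-46372913): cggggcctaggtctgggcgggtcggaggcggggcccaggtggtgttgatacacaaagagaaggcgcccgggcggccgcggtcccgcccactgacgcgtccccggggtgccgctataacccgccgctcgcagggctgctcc
SLC7A5 (chr16:87869508-87869647): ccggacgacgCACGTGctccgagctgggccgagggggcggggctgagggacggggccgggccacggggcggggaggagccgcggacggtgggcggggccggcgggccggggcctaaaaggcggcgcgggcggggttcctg

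The windows of SLC38A1 and SLC38A2 held none of the 3 motifs, and that of SLC7A5 held 1 E-box, 130 to 125 bases before the start. Among all 35116 RefSeq promoters of this length, 6.34% held that E-box, 3.14% TGATGNAA and 10.9% TGACNNNGC. The RefSeq starts of SLC38A2 and SLC7A5 are those of the GENCODE v44 genes, and that of SLC38A1 lies 2030 bases inside the GENCODE gene. SLC7A11 was not matched in the RefSeq table. Of the 9 members matched, SLC7A1 held 1 antioxidant response element, 85 to 77 bases before its start. The window of SLC1A5 held 1 TGATGNAA match, but lies 3780 bases inside the GENCODE gene and overlaps its exons. The windows of SLC3A2 (24892 bases inside its GENCODE gene), SLC1A4 (922 bases inside), SLC43A1 (871 bases inside) and SLC6A9 held no match. These are matches of letters, with no binding measured.

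SLC38A1 was at 1096, 1097 and 1096 CPM in the vehicle libraries of QGP-1 and at 1611, 1586 and 1539 CPM in the DOX libraries. All DOX libraries lay above all vehicle libraries, by a log2 fold change of 0.53 (SE 0.0600, n = 3 per group, edgeR adjusted p = 2.17e-05). In BON-1 cells SLC38A1 was at 821, 735 and 785 CPM with vehicle and at 999, 1052 and 1113 CPM with DOX. These groups did not overlap either, with a log2 fold change of 0.43 (SE 0.0808, n = 3 per group, edgeR adjusted p = 0.000108).

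SLC38A2 was at 1241, 1206 and 1269 CPM with vehicle and at 1476, 1493 and 1463 CPM with DOX in QGP-1 cells. The rise of 1.19-fold (log2 0.25, SE 0.0602, n = 3 per group, edgeR adjusted p = 0.00481) was small but larger than the spread within groups. In BON-1 cells SLC38A2 stood at 418, 433 and 441 CPM with vehicle and at 748, 707 and 827 CPM with DOX, a rise of 1.77-fold (log2 0.82, SE 0.0798, n = 3 per group, edgeR adjusted p = 4.80e-09). The lowest BON-1 DOX library was thus well above the highest vehicle library, and 9.6% of the genes tested in BON-1 cells moved by more in either direction. The response was larger in BON-1 than in QGP-1 cells by 0.58 on the log2 scale (SE 0.106, n = 3 per group, edgeR adjusted p of the interaction = 0.000458), and SLC38A2 began lower there (log2 -1.60, BON-1 against QGP-1 in vehicle, SE 0.0764). That of SLC38A1 was not called different (interaction -0.08, 95% interval -0.29 to 0.13). Among all 16598 genes in the joint fit of the 12 libraries, 8.8% were called with a higher response in BON-1 cells and 7.92% with a lower one.

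SLC7A11, the cystine importer (chr4:138164097-138242349, minus strand), was at 591, 577 and 609 CPM with vehicle and at 878, 869 and 874 CPM with DOX in QGP-1 cells. In BON-1 cells it was at 328, 307 and 308 CPM with vehicle and at 529, 540.0 and 599 CPM with DOX. The DOX libraries lay above the vehicle libraries in both lines, and the log2 fold change was 0.56 (SE 0.0607, n = 3 per group, edgeR adjusted p = 1.48e-05) in QGP-1 and 0.82 (SE 0.0776, n = 3 per group, edgeR adjusted p = 2.71e-09) in BON-1 cells. The difference between the lines, 0.27 (95% interval 0.07 to 0.48), missed the threshold after adjustment (edgeR adjusted p = 0.0728) and was called by DESeq2 (adjusted p = 0.0274). Only 9.51% of the genes tested in BON-1 cells and 18.1% of those in QGP-1 cells moved by more. The antisense gene SLC7A11-AS1 shares 865 exonic bases with SLC7A11, and its own counts were 0 to 3 per library.

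SLC7A5 responded differently in the lines, and its partner SLC3A2 was called in BON-1 cells. In QGP-1 cells SLC7A5 was at 237, 232 and 203 CPM with vehicle and at 262, 278 and 234 CPM with DOX. The groups overlapped, and the log2 fold change of 0.20 (95% interval 0.04 to 0.36) did not pass the test in these libraries (edgeR adjusted p = 0.0662), although it did under DESeq2 (adjusted p = 0.0490). In BON-1 cells SLC7A5 was at 147, 127 and 130.0 CPM with vehicle and at 107, 116 and 98.0 CPM with DOX. All DOX libraries were below all vehicle libraries, with a log2 fold change of -0.33 (SE 0.0825, n = 3 per group, edgeR adjusted p = 0.00232). With the offset for transcript GC and length the BON-1 value was -0.14 and not called (adjusted p = 0.102). The response in BON-1 minus that in QGP-1 cells was -0.52 (SE 0.123, n = 3 per group, edgeR adjusted p of the interaction = 0.00426), and the interaction was called in each of the 12 fits that left out 1 library, and with the offset it was -0.31 (adjusted p = 0.0186). The processed pseudogene SLC7A5P2, with 54 to 198 counts per library, was at most 9.87% of the count of SLC7A5, and how reads that match both were counted is not given in the sources used here.

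SLC3A2 (chr11:62856004-62888880, plus strand) was at 172, 152 and 139 CPM with vehicle and at 151, 163 and 154 CPM with DOX in QGP-1 cells. Its log2 fold change there was 0.02 (95% interval -0.14 to 0.17). In BON-1 cells it was at 154, 139.9 and 132 CPM with vehicle and at 109, 135 and 107 CPM with DOX, a log2 fold change of -0.28 (SE 0.0877, n = 3 per group, edgeR adjusted p = 0.0137), which became -0.08 (adjusted p = 0.439) with the offset. The BON-1 groups overlapped through DOX replicate 2, and the call was lost without vehicle replicate 1 or without DOX replicate 1 (largest edgeR adjusted p = 0.0805). The difference between the lines was not called (-0.29, 95% interval -0.54 to -0.03, edgeR adjusted p = 0.143).

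Of the neutral amino acid exchangers, SLC1A5 was called lower in both lines on the counts (in QGP-1 cells it was called higher on unrescaled TPM, 0.44, limma adjusted p = 0.00238, and not called on rescaled TPM) and SLC1A4 higher in QGP-1 cells. SLC1A5 (chr19:46774883-46788594, minus strand) was at 164, 152 and 150.0 CPM with vehicle and at 142, 130.2 and 113 CPM with DOX in QGP-1 cells, a log2 fold change of -0.27 (SE 0.0828, n = 3 per group, edgeR adjusted p = 0.0190). The groups did not overlap, but the call was lost without vehicle replicate 1 or without DOX replicate 3 (largest edgeR adjusted p = 0.0869). In BON-1 cells it was at 258, 233 and 229 CPM with vehicle and at 181, 193 and 179 CPM with DOX, a log2 fold change of -0.38 (SE 0.0761, n = 3 per group, edgeR adjusted p = 0.000254), called in each of the 6 fits that left out 1 library but not with the offset for GC and length (-0.16, adjusted p = 0.0515). SLC1A5 is among the mTORC1 signaling genes that the study listed as lower in both lines from these same libraries, so its direction here is not independent evidence. SLC1A4 (chr2:64988477-65023865, plus strand) was at 65.9, 62.4 and 63.7 CPM with vehicle and at 85.8, 85.0 and 78.4 CPM with DOX in QGP-1 cells. That rise of 1.30-fold (log2 0.38, SE 0.0726, n = 3 per group, edgeR adjusted p = 0.00121) separated the groups in full. In BON-1 cells SLC1A4 was at 78.4, 70.4 and 64.3 CPM with vehicle and at 66.3, 75.7 and 72.2 CPM with DOX, with overlapping groups and a log2 fold change of 0.01 (95% interval -0.17 to 0.18). The interaction of -0.36 was just past the threshold (edgeR adjusted p = 0.0449), and 6 of the 12 fits that left out 1 library lost it (without QGP-1 vehicle replicate 1, 2 or 3, QGP-1 DOX replicate 2, BON-1 vehicle replicate 1 or BON-1 DOX replicate 1, largest edgeR adjusted p = 0.0941).

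The remaining members are the cationic amino acid carrier SLC7A1 (chr13:29509414-29595688, minus strand), the leucine carrier SLC43A1 (chr11:57484534-57515780, minus strand) and the glycine carrier SLC6A9 (chr1:43991500-44031467, minus strand). SLC7A1 ranged from 188 to 217 CPM with vehicle and from 215 to 251 CPM with DOX in QGP-1 cells, and from 101 to 120.1 CPM and from 115 to 127 CPM in BON-1 cells. Its groups overlapped in both lines, with log2 fold changes of 0.19 (95% interval 0.03 to 0.34) and 0.16 (95% interval 0.00 to 0.32) that did not pass the test. SLC43A1, a low transcript in QGP-1 cells, was at 7.68, 7.75 and 6.79 CPM with vehicle and at 4.48, 5.98 and 5.37 CPM with DOX. In BON-1 cells it was at 23.9, 22.7 and 23.4 CPM with vehicle and at 15.9, 18.5 and 14.6 CPM with DOX. The groups did not overlap in either line, and the log2 fold changes were -0.49 (SE 0.153, n = 3 per group, edgeR adjusted p = 0.0226) and -0.51 (SE 0.124, n = 3 per group, edgeR adjusted p = 0.00171). The QGP-1 call of SLC43A1 was lost without vehicle replicate 1, vehicle replicate 2 or DOX replicate 1 (largest edgeR adjusted p = 0.0802). On rescaled TPM the QGP-1 value of SLC43A1 was -0.14 and not called (limma adjusted p = 0.355). SLC6A9, with only 59 to 161 counts per library, was lowest of all, at 2.11 to 3.54 CPM in QGP-1 cells with overlapping groups, and in BON-1 cells at 5.72, 5.54 and 5.56 CPM with vehicle against 3.79, 4.58 and 4.68 CPM with DOX. It passed the test in neither line, and a change of up to -0.69 in QGP-1 or -0.77 in BON-1 cells on the log2 scale lay within its 95% intervals. Its exons share 413 bases with CCDC24 on the other strand, whose count reached 426% of that of SLC6A9, and whether the counting used the strand is not given in the sources used here.

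**Figure D2:**
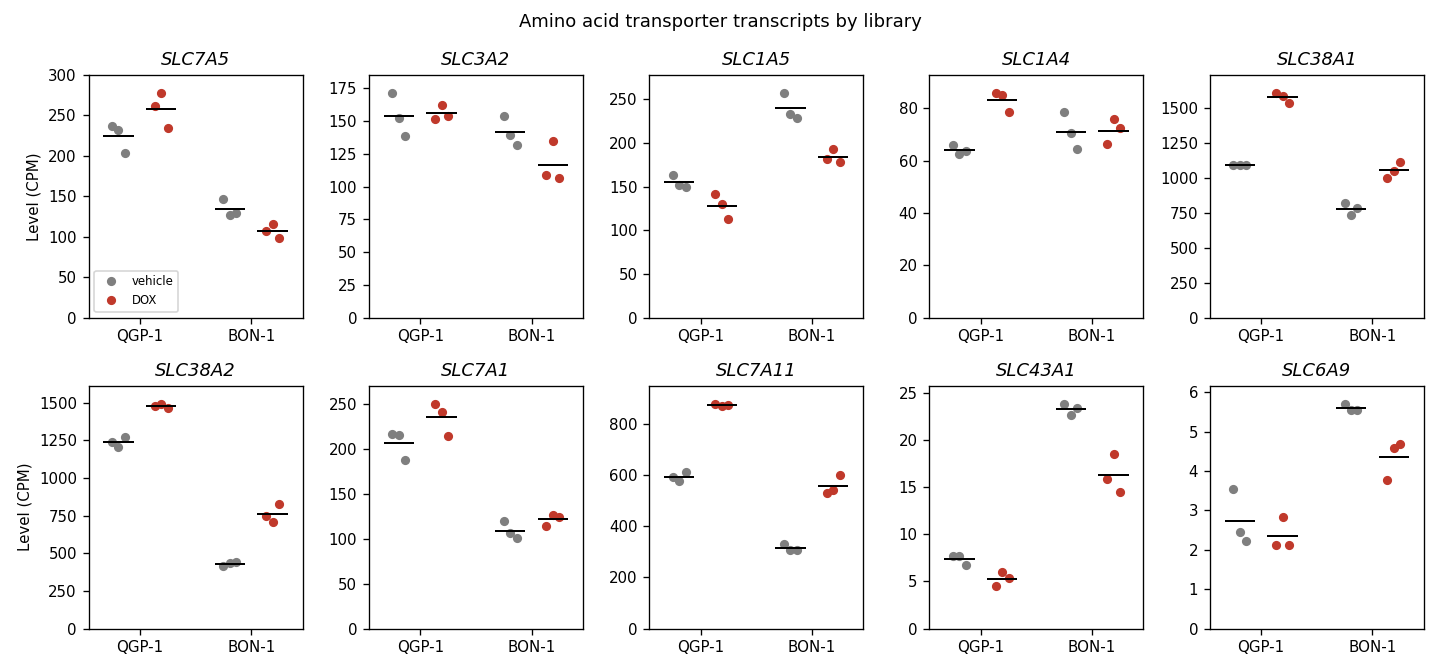
Level (y axis, TMM-scaled CPM) of each transporter in the 3 vehicle (grey) and 3 DOX (red) libraries of QGP-1 and BON-1 cells, each point a library and each bar the mean of 3. SLC38A1, SLC38A2 and SLC7A11 show DOX points above the vehicle points in both lines, and SLC43A1 shows them below; the vehicle and DOX points of SLC3A2 and SLC7A1 overlap in both lines.

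Between the vehicle groups, 5 of the 10 members were lower and 3 higher in BON-1 than in QGP-1 cells, a share near that of all genes, of which 37.5% were called lower and 37.5% higher. SLC38A2 was lower by 1.60 on the log2 scale (0.329-fold), SLC7A1 by 1.00, SLC7A11 by 0.99, SLC7A5 by 0.81 and SLC38A1 by 0.57. SLC43A1 was 2.98-fold higher in BON-1 cells (log2 1.58, SE 0.136, edgeR adjusted p = 1.45e-10), SLC6A9 1.95-fold and SLC1A5 1.46-fold. SLC1A4 (log2 0.08) and SLC3A2 (log2 -0.20, edgeR adjusted p = 0.0558) were not called, although SLC3A2 was without the filter on low counts (-0.22, adjusted p = 0.0155) and in 4 of 12 fits that left out 1 library, and SLC1A4 was with library-size scaling (0.18, adjusted p = 0.0457).

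To compare levels between genes, TPM values, which are per length, were rescaled after 3 abundant small RNAs (RN7SK, RN7SL1 and RN7SL2, 50.9% to 80.3% of TPM by library) had been left out. In QGP-1 cells the share of these RNAs was 78.8% to 80.3% with vehicle and 71.2% to 75.4% with DOX, without overlap. In BON-1 cells it was 50.9% to 65.6% with vehicle and 53.4% to 74.3% with DOX, and overlapped. The gene lengths behind the deposited TPM are not given in the sources used here, and levels were not recomputed with other lengths. In BON-1 vehicle cells SLC38A1 was at 781 CPM (canonical transcript 8097 bases) and SLC38A2 at 431 CPM (4795 bases). Their order there can differ with the lengths used. On the deposited lengths SLC38A2 was the most abundant member in every group, at 465 ± 14.3 (SD, n = 3) rescaled TPM in QGP-1 and 197 ± 8.21 (SD, n = 3) in BON-1 vehicle cells. In QGP-1 vehicle cells SLC38A1 followed at 195 ± 7.45, then SLC7A11 at 109 ± 2.95, SLC3A2 at 102 ± 14.6, SLC1A5 at 92.0 ± 7.61 and SLC7A5 at 90.9 ± 10.7 (SD, n = 3), and the ranges of these last 4 overlapped from each to the next. SLC7A1 at 50.7, SLC1A4 at 24.6, SLC43A1 at 5.46 and SLC6A9 at 1.38 rescaled TPM followed without overlap. In BON-1 vehicle cells SLC1A5 stood at 172 ± 9.76 (SD, n = 3), overlapping SLC38A1 at 169 ± 5.43 (SD, n = 3), and both were below SLC38A2. There SLC3A2 came next at 114, then SLC7A11 at 70.4 and SLC7A5 at 66.1 rescaled TPM, which overlapped, as did SLC1A4 at 33.2 and SLC7A1 at 32.4. With DOX in BON-1 cells SLC1A5 dropped behind SLC38A1, to 129 against 223 rescaled TPM, and SLC7A11 at 122 overlapped it. The share of the 10 members' summed TPM held by SLC38A2 was 41.0% in QGP-1 vehicle and 40.4% in QGP-1 DOX cells, and 22.4% ± 1.47 (SD, n = 3) in BON-1 vehicle and 32.6% ± 2.10 (SD, n = 3) in BON-1 DOX cells.

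**Figure D3:**
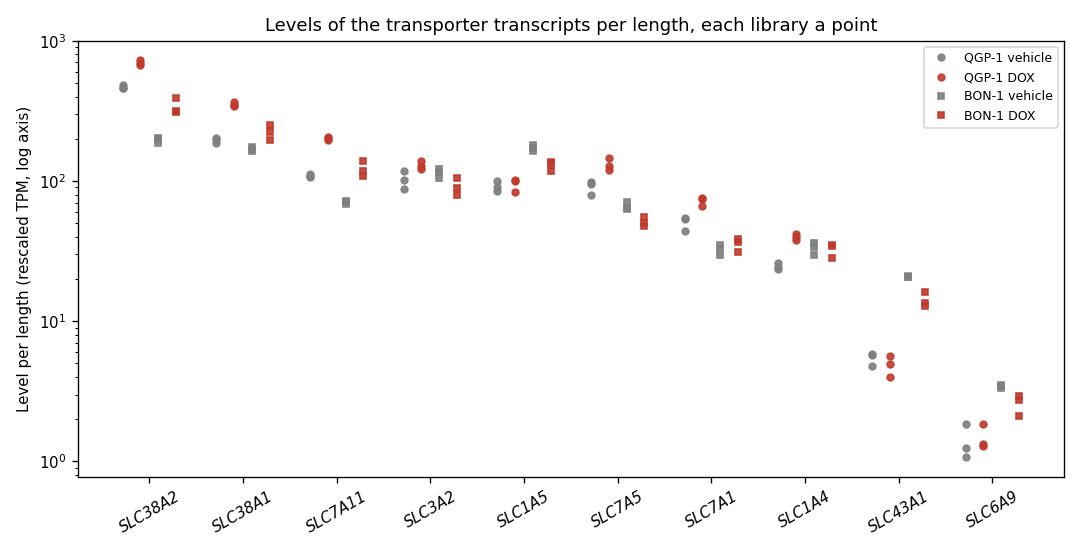
Level per length (y axis, TPM rescaled without RN7SK, RN7SL1 and RN7SL2, log axis) of each transporter in each library, with circles for QGP-1 and squares for BON-1, grey for vehicle and red for DOX. With the gene lengths of the deposited TPM, SLC38A2 is highest in every group and SLC6A9 lowest, and the order can differ with other lengths. QGP-1 DOX points lie high for most genes on this scale, on which all genes have a median log2 fold change of 0.29.

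Ratios within a library do not depend on its scaling, and 3 pairs of partners or paralogs were compared in this way. The level of each ratio rests on the gene lengths behind the deposited TPM, which are not given in the sources used here. Its change with DOX does not rest on them. The ratios can also depend on transcript GC and length through the libraries, and were not recomputed with the offset for these. With that offset the QGP-1 log2 fold changes were 0.18 (SLC7A5), 0.14 (SLC3A2), 0.37 (SLC38A1) and 0.25 (SLC38A2). Without it they were 0.20, 0.02, 0.53 and 0.25. In BON-1 cells SLC1A5 was at -0.16 and SLC1A4 at 0.05 with it, beside -0.38 and 0.01. There SLC38A1 was at 0.36 and SLC38A2 at 0.75 with it, beside 0.43 and 0.82. SLC7A5 per SLC3A2 was 0.891 ± 0.0445 with vehicle and 1.01 ± 0.0712 with DOX in QGP-1 cells (SD, n = 3 per group, two-sided exact permutation p = 0.2), and 0.581 ± 0.0246 and 0.563 ± 0.0367 in BON-1 cells (SD, n = 3 per group, exact p = 0.6). SLC1A5 per SLC1A4 fell from 3.73 ± 0.101 to 2.37 ± 0.163 in QGP-1 and from 5.21 ± 0.228 to 3.98 ± 0.206 in BON-1 cells (SD, n = 3 per group, exact p = 0.1 in each line). The libraries did not overlap in either line, and 0.1 is the smallest p that 3 against 3 libraries can give. SLC38A1 per SLC38A2 moved in opposite directions, from 0.420 ± 0.0109 to 0.507 ± 0.00972 in QGP-1 and from 0.861 ± 0.0645 to 0.659 ± 0.0406 in BON-1 cells (SD, n = 3 per group, exact p = 0.1 in each line), again without overlap. Over the 6 ratios tested, the adjusted exact p-values were 0.15 for these 4, 0.24 and 0.6, so no ratio passed a threshold of 0.05, and none could have.

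**Figure D4:**
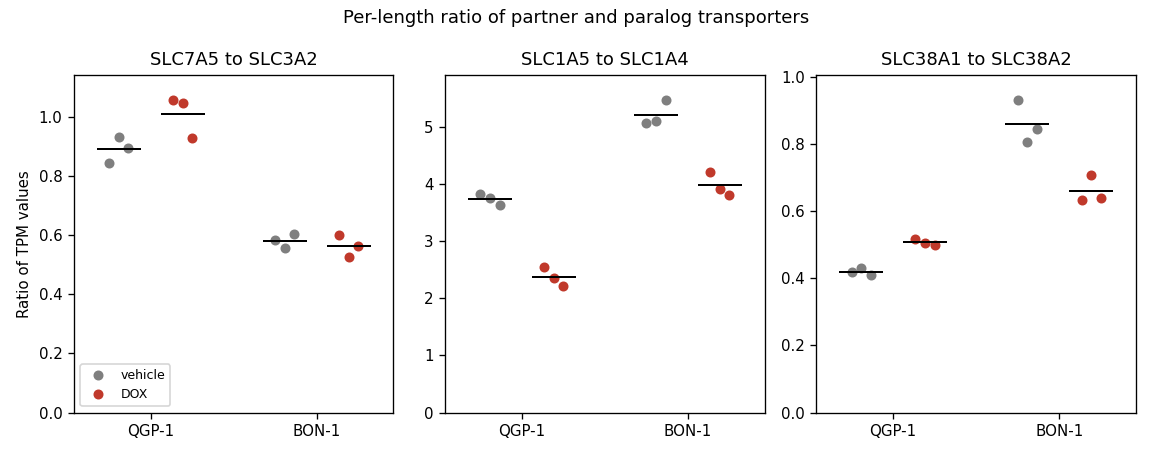
Ratio of TPM values (y axis) of SLC7A5 to SLC3A2, SLC1A5 to SLC1A4 and SLC38A1 to SLC38A2 in each vehicle (grey) and DOX (red) library, with bars for the mean of 3. The ratio of SLC1A5 to SLC1A4 is lower with DOX in both lines, and that of SLC38A1 to SLC38A2 is higher with DOX in QGP-1 and lower in BON-1.

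The members that rose and those that fell differed in the base composition and length of their transcripts. The 3 that rose in both lines had canonical transcripts (GENCODE v44) of 35.4% (SLC7A11), 37.4% (SLC38A2) and 41.3% (SLC38A1) GC, and the 4 that fell in BON-1 cells had 57.8% (SLC3A2), 58.0% (SLC43A1), 61.2% (SLC7A5) and 61.3% (SLC1A5). SLC1A4 (52.6%) and SLC7A1 (52.7%) lay between, and SLC6A9, not called, was at 60.0%. Across all genes the Spearman correlation of the log2 fold change with transcript GC was -0.294 over 13444 genes in BON-1 and -0.110 over 13877 genes in QGP-1 cells, as a description, since genes of 1 library share its depth and composition. With transcript length it was 0.284 in QGP-1 and 0.0998 in BON-1 cells, so that in QGP-1 cells length was the stronger of these. There the median log2 fold change went from -0.20 in the shortest transcripts (the fifth of all genes) to 0.17 in as many of the longest, and 4.68% and 38.2% of these were called higher. The canonical transcripts of the 4 members that rose in QGP-1 cells are 4563 (SLC1A4), 4795 (SLC38A2), 8097 (SLC38A1) and 9645 (SLC7A11) bases long, and those of the 2 that fell 2514 (SLC43A1) and 2882 (SLC1A5). The other members, not called there, have 1885 (SLC3A2), 3206 (SLC6A9), 4556 (SLC7A5) and 7343 (SLC7A1) bases. SLC7A1 is thus longer than SLC1A4 and SLC38A2, which rose, and SLC7A5 is close to SLC1A4 in length. In BON-1 cells the median log2 fold change went from 0.11 in the genes lowest in GC (the fifth of all genes) to -0.22 in as many genes of highest GC. The level of the low-GC genes minus that of the high-GC genes, relative to the line's mean on the log2 scale, was -0.22, -0.19 and -0.10 in the BON-1 vehicle libraries and 0.10, 0.01 and 0.39 in the DOX libraries, which did not overlap. In QGP-1 cells the same values were -0.18, -0.16 and 0.15 with vehicle and 0.11, -0.05 and 0.09 with DOX, and overlapped.

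With an offset for transcript GC and length in the edgeR fit, a choice made after these values were seen, SLC38A1 (0.36), SLC38A2 (0.75), SLC7A11 (0.70) and SLC43A1 (-0.34) stayed called in BON-1 cells. SLC7A5 (-0.14, adjusted p = 0.102), SLC3A2 (-0.08, adjusted p = 0.439) and SLC1A5 (-0.16, adjusted p = 0.0515) lost their calls there, and SLC7A1 (0.18, adjusted p = 0.0373) gained one. In QGP-1 cells all 6 calls stayed and SLC7A5 (0.18, adjusted p = 0.0283) gained one, whereas SLC7A1 went from 0.19 to 0.00 (adjusted p = 0.998). The interactions of SLC7A5 (-0.31, adjusted p = 0.0186) and SLC38A2 (0.51, adjusted p = 0.000180) stayed called, and that of SLC1A4 (-0.21, adjusted p = 0.179) did not. Such an offset also removes any response to DOX that itself follows GC or length, and these cannot be told apart here.

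**Figure D5:**
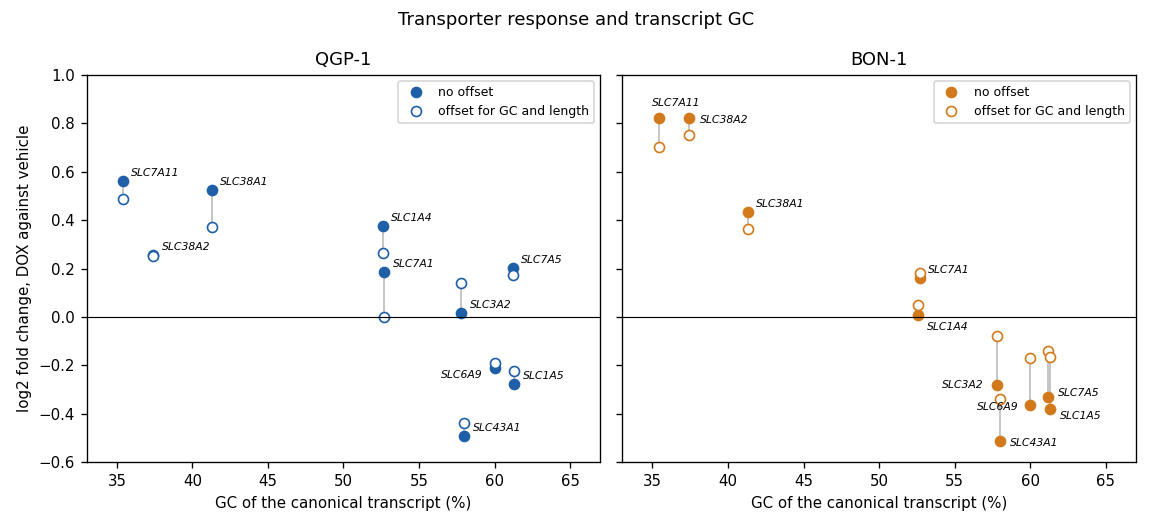
Log2 fold change with DOX (y axis) of each transporter against the GC percent of its canonical transcript (x axis) in QGP-1 and BON-1 cells, filled without and open with an offset for transcript GC and length. In BON-1 the transporters above 57% GC lie below 0 and move toward 0 with the offset, whereas SLC7A11, SLC38A2 and SLC38A1 stay above 0.3.

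The calls also depend on how libraries are scaled. On log2(TPM + 1) after rescaling without the 3 small RNAs, tested with limma, all genes had a median log2 fold change of 0.29 in QGP-1 and -0.05 in BON-1 cells, and 659 genes were called lower and 6491 higher in QGP-1 cells, against 2676 and 2610 in the counts. For BON-1 the numbers were 2103 lower and 1171 higher, against 2677 and 2488. Relative to that median, QGP-1 cells had SLC7A11 at 0.59, SLC38A1 at 0.56, SLC1A4 at 0.39, SLC38A2 at 0.29, SLC1A5 at -0.24 and SLC43A1 at -0.43. Unshifted, SLC1A5 was at 0.04 (limma adjusted p = 0.746) and SLC43A1 at -0.14 (limma adjusted p = 0.355), and neither was called. In BON-1 cells the 3 rises and the falls of SLC7A5, SLC1A5 and SLC43A1 stayed called on that scale, and that of SLC3A2 did not (adjusted p = 0.101).

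Among 8960 genes, those whose levels moved most like SLC7A5 over the 12 libraries were GNA11, XPO5 and CARM1, with a root mean square difference of 0.051 to 0.057 in log2 CPM centred within each line. Those most like SLC7A11 were RPS6KA3, SLC9B2 and DYNLT3, at 0.070 to 0.073. The root mean square of the centred values themselves was 0.169 for SLC7A5 and 0.355 for SLC7A11. No offset for GC and length was used here, so likeness in levels and shared transcript composition cannot be told apart. GNA11 encodes a G protein alpha subunit, XPO5 the exporter of microRNA precursors, CARM1 an arginine methyltransferase and RPS6KA3 the kinase RSK2.

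Of 43 other genes of these transporter families, 22 were tested in QGP-1 cells, with 3 lower and 7 higher, and 24 in BON-1 cells, with 8 lower and 7 higher. Their median log2 fold change was 0.14 and 0.03. The values of this and the next 3 lists come from the fit without the offset for GC and length, and their calls were not examined with it. The counts stand beside 17.7% of all genes called lower and 17.3% higher in QGP-1 cells, and 18.3% lower and 17% higher in BON-1 cells. SLC6A17, a vesicular carrier of neutral amino acids, rose in both lines (0.22 and 0.70), and SLC16A10, a carrier of aromatic amino acids (-0.45 and -0.70), and SLC38A10 (-0.28 and -0.35) fell in both. SLC1A2, a glutamate transporter, went from 2.74 ± 0.675 to 1.33 ± 0.568 CPM in QGP-1 and from 3.31 ± 1.32 to 11.1 ± 1.58 CPM in BON-1 cells (SD, n = 3), called lower in the first (-1.03) and higher in the second (1.71). The taurine carrier SLC6A6 rose in QGP-1 cells (0.42) and was at 0.02 in BON-1 cells. The glutamate and cysteine carrier SLC1A1 was called higher in BON-1 cells (1.25), at only 8 to 31 counts per library. SLC1A3 was called higher in QGP-1 cells, at 2 to 12 counts with vehicle and 11 to 37 with DOX, and was at 0 in all BON-1 libraries. SLC6A19 was called lower in BON-1 cells, at 29 to 52 counts with vehicle and 3 to 8 with DOX, and at 0 to 3 counts in QGP-1 libraries.

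Of 18 genes of the amino acid response, the eIF2alpha kinases and ATF4 with its partners and targets, 3 were lower and 3 higher in each line, shares close to those of all genes, with medians of 0.02 and 0.00. The mRNA of ATF4, which is regulated mainly by translation, was at -0.12 in QGP-1 and -0.03 in BON-1 cells and not called. Of the targets listed, ASNS (-0.23 and 0.19), CHAC1 (0.28 and -0.02) and DDIT3 (0.33 and 0.50) were not called. These were picked after their values were seen. The listed targets DDIT4, PPP1R15A and VLDLR were called in both lines and TRIB3 in QGP-1 cells, in differing directions. The activity of ATF4 was not tested. DDIT4, an inhibitor of mTORC1, fell in both (-1.34 and -1.20), as did CEBPB, a partner of ATF4 (-0.77 and -0.47). PPP1R15A, which directs dephosphorylation of eIF2alpha, rose in both (0.51 and 0.45), as did the lipoprotein receptor VLDLR (0.27 and 0.67). TRIB3 was lower in QGP-1 cells (-0.27). Of the kinases, EIF2AK3 (PERK) was higher in QGP-1 cells (0.44), and EIF2AK2 (PKR) was lower (-0.73) and EIF2AK4 (GCN2), the sensor of uncharged tRNA, higher (0.32) in BON-1 cells.

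Of 30 genes of amino acid sensing at the lysosome, 29 were tested in QGP-1 cells, with 6 lower and 3 higher, and 28 in BON-1 cells, with 7 lower and 4 higher (medians -0.11 and -0.03). The Ragulator subunits LAMTOR1 (-0.39 and -0.31), LAMTOR2 (-0.30 and -0.51) and LAMTOR3 (-0.93 and -0.31) fell in both lines, and the folliculin partners FNIP1 (0.33 and 0.23) and FNIP2 (0.41 and 0.44) rose in both. LAMTOR4 (-0.85), SEC13 (-0.42) and WDR24 (-0.38), the last 2 of the GATOR2 complex, fell in BON-1 cells. The other Ragulator subunit, LAMTOR5, named here after its values were seen, was higher in BON-1 cells (0.36, edgeR adjusted p = 0.000984) and at -0.13, not called, in QGP-1 cells. SESN1, a sestrin (-0.52), NPRL2, a GATOR1 subunit (-0.43), and CASTOR1, the arginine sensor (-0.96), fell in QGP-1 cells.

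Of 14 enzymes of glutamine and glutathione metabolism, 13 were tested, with 4 lower and 1 higher in QGP-1 and 1 lower and 1 higher in BON-1 cells (medians -0.14 and 0.00). Glutathione reductase, GSR, fell in both (-0.29 and -0.26). GLUL, glutamine synthetase, rose in BON-1 cells (0.60) and was at 0.00 in QGP-1 cells. GPX4, a glutathione peroxidase (-0.48), and GOT1, an aspartate aminotransferase (-0.31), fell, and GPT2, an alanine aminotransferase, rose (0.37) in QGP-1 cells.

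Some markers of other cell types were expressed in these lines and moved with DOX, and other genes of the same lists were at or near 0. Summed over 5 leukocyte genes the level was 28.1, 28.1 and 26.1 CPM with vehicle and 57.6, 52.8 and 51.7 CPM with DOX in BON-1 cells and 10.5 to 12.9 and 17.1 to 21.0 CPM in QGP-1 cells. Its most abundant gene was CD68 in BON-1 and LYZ in QGP-1 cells, and the means of PTPRC and CD3E were at most 0.0856 CPM in every group. Summed over 6 acinar genes the level was 82.6 to 151 CPM with vehicle and 28.9 to 40.0 CPM with DOX in QGP-1 and 36.1 to 45.9 and 19.6 to 27.0 CPM in BON-1 cells, nearly all PRSS1, with CTRB1 at 0 in every library. Summed over 6 fibroblast genes it was 5.22 to 6.65 CPM with vehicle and 10.7 to 11.6 CPM with DOX in BON-1 cells, led by LUM, with DCN at most at 0.0693 CPM on average in any group, whereas QGP-1 libraries ranged from 1.81 to 3.66 CPM with vehicle and, lower, from 1.14 to 1.32 CPM with DOX, led by COL1A1 (log2 -1.16, edgeR adjusted p = 0.00727). Summed over 5 endothelial genes it was 32.5 to 41.5 CPM in BON-1 cells, led by KDR (34.1 CPM with vehicle and 37.9 CPM with DOX), and at most 1.60 CPM in QGP-1 cells, with CDH5 at most at 0.0542 CPM on average in any group. Of 8 neuroendocrine genes, CHGA (log2 -1.46), SYP (-0.34) and PCSK1 (-0.23) fell and SCG2 rose (0.45) in BON-1 cells, and NCAM1 fell (-0.51) and CHGB rose (0.39) in QGP-1 cells. The summed level in BON-1 cells, most of it CHGA with vehicle, went from 10842 to 14142 CPM with vehicle to 8036 to 8692 CPM with DOX. The part of these shifts in the transporter results was not tested.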

How the data were processed

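The authors made stranded mRNA libraries, aligned reads with STAR to GRCh38 and deposited raw counts of genes and TPM values, in separate tables per line. The deposited TPM kept a fixed proportion to each gene's counts, so they are counts per length scaled within a library. The counting program, its strand setting and the gene lengths used for TPM are not given in the sources used here. Columns were matched to libraries by name, with 0 left unused.

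The test of counts was edgeR 4.0.16 (R 4.3.3; default filter, TMM, quasi-likelihood, Benjamini-Hochberg over all genes tested), per line, and over all 12 libraries and 16598 genes for the interaction of line and DOX and for BON-1 against QGP-1 vehicle. The standard error is the size of the log2 fold change over the square root of F, and 95% intervals are 1.96 SE on each side. CPM was set within each line, so BON-1 and QGP-1 CPM are compared only by the joint fit. Counting error is largest for the genes of lowest count (SLC6A9, SLC43A1, MUC1), and the standard errors also hold the spread between libraries. No pair of replicates agreed within sampling noise (chi-square per gene 5.72 to 28.2). The fits were also run on simulated data, whose outcome is not given here, so no result rests on it.

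Alternatives were DESeq2 1.42.0, library-size scaling, 2 other filters, a replicate block, 1 fit of both lines, limma 3.58.1 on log2(TPM + 1) with mean TPM of at least 1, a minimum fold change, leaving out each library and, chosen after seeing the data, an offset for transcript GC and length (natural splines per library, 92.0% of QGP-1 and 91.9% of BON-1 genes matched to GENCODE v44). Promoters were RefSeq GRCh38.p14.

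The members and lists were chosen with earlier results of these data known. Named were all members and MUC1, in each other list the genes called the same way in both lines and up to 3 other calls of largest fold per line, and the 3 genes most like SLC7A5 and SLC7A11; ATF4, ASNS, CHAC1, DDIT3, LAMTOR5 and the markers were added after their values were seen. SLC66A1 and LARS1 were found under the older symbols PQLC2 and LARS. From the lists, 2 genes are not reported here and were left out of the counts and sums.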

Additional observations from a re-analysis of the deposited data

Results flagged for a closer look

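The response to DOX differed between QGP-1 and BON-1 cells for 3 of the 10 transporters and for a number of other listed genes, by the interaction in the joint edgeR fit (log2 fold change in BON-1 minus that in QGP-1 cells, 3 libraries per group). Among the members the difference was -0.524 for SLC7A5, -0.361 for SLC1A4 and 0.577 for SLC38A2. That of SLC1A4 was lost in 6 of 12 fits without 1 library, with the replicate block (adjusted p = 0.0620) and with the GC and length offset (-0.21, adjusted p = 0.179). Among other transporters it was 2.74 for SLC1A2, 1.13 for SLC1A1, 0.485 for SLC6A17 and -0.393 for SLC6A6. In the amino acid response it was -0.764 for EIF2AK2, -0.545 for EIF2AK3, 0.41 for VLDLR and 0.34 for EIF2AK4. In sensing it was 0.636 for LAMTOR3 and 0.588 for SESN1, and among enzymes 0.613 for GLUL and 0.486 for GOT1. Over the whole lists, the interaction was called for 11 of 26 other transporters (6 lower and 5 higher in BON-1 cells), 4 of 18 genes of the response, 3 of 29 of sensing and 2 of 13 enzymes, beside 7.92% lower and 8.8% higher of all genes. The calls not named above include SLC7A2 (-1.40), SLC43A2 (-0.96) and LAMTOR5 (0.50), and CHGA (-1.60) and SYP (-0.51) were called among the neuroendocrine markers, all picked after their values were seen. SLC6A19 was called too, but with 0 to 3 counts in QGP-1 libraries its fitted difference has no stable size and is not given. SLC1A2, at 38 to 247 counts per library, was called in opposite directions in the lines, as were SLC43A2 (0.28 in QGP-1 and -0.67 in BON-1 cells) and SLC38A11 (0.39 and -0.22), and SLC1A1 was at 8 to 31 counts in BON-1 libraries. With 3 libraries per group no group was tested for single outlying libraries, and no cause of these differences was tested.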

How the results depend on the processing

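SLC38A1, SLC38A2 and SLC7A11 stayed called higher in both lines under DESeq2, library-size scaling, both other filters, the replicate block, 1 fit of both lines, the GC and length offset and each left-out library; the exceptions were a minimum log2 fold change of 1, which left 0 members lower and 0 higher in each line, and limma on unrescaled TPM in BON-1 cells. That setting shifted all genes to a median log2 fold change of 0.59 in QGP-1 and -0.31 in BON-1 cells, and called 0 members lower and 8 higher in QGP-1 and 0 and 0 in BON-1 cells (all genes 89 lower and 9149 higher, and 335 lower and 34 higher). There SLC1A5 (0.44, called higher) and SLC43A1 (0.14) in QGP-1 cells and SLC1A4 (-0.32) and SLC7A1 (-0.18) in BON-1 cells changed sign. On rescaled TPM 0 members were lower and 7 higher in QGP-1 cells (659 and 6491 genes), 1171 genes were higher in BON-1 cells, and SLC1A5 (0.0430) and SLC6A9 (0.0686) in QGP-1 and SLC1A4 (-0.0301) in BON-1 cells changed sign. A minimum log2 fold change of 1 left 360 genes lower and 183 higher in QGP-1 and 447 and 272 in BON-1 cells. SLC1A4 in BON-1 cells, not called, was at -0.0377 with library-size scaling, -0.0127 without a filter and -0.00774 with at least 10 counts per library. DESeq2 called 2 members with a higher response in BON-1 cells, where edgeR called 1.

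With the offset for GC and length, 1 member was called lower in BON-1 cells and 1 with a lower response there, and the interactions of SLC1A5 (0.0690), SLC38A1 (0.00294), SLC7A1 (0.19), SLC43A1 (0.11) and SLC6A9 (0.0331), none called, changed sign; the cause was not tested. Whether replicate numbers pair the cultures is not known. Correlations of same-numbered vehicle and DOX libraries were -0.04 to 0.07, beside -0.13 to 0.09 for other pairs. Values this small over all genes cannot decide it. In the fit with the replicate block, SLC7A5 (0.20, adjusted p = 0.0188) and SLC7A1 (0.19, adjusted p = 0.0227) were called higher in QGP-1 cells, and 1 member was called with a lower response in BON-1 cells, since SLC1A4 (-0.36) missed the threshold (adjusted p = 0.0620).

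Leaving out 1 library at a time gave 0 to 2 members lower and 4 to 6 higher in QGP-1 cells, 3 to 4 lower and 3 to 4 higher in BON-1 cells, and 1 to 3 members with a lower response in BON-1 cells. The 0 came without QGP-1 vehicle replicate 1; without vehicle replicate 2, DOX replicate 1 or DOX replicate 3 there was 1. Without DOX replicate 1 of QGP-1, 1 member was lower and 4 higher. Values that changed sign ranged from -0.36 to 0.0114 for SLC6A9 and from -0.0551 to 0.0989 for SLC3A2 in QGP-1 cells, from -0.0685 to 0.0825 for SLC1A4 in BON-1 cells, from -0.0952 to 0.0468 for SLC7A1, -0.177 to 0.0856 for SLC43A1 and -0.364 to 0.00860 for SLC6A9 in the interaction, from -0.0143 to 0.134 for SLC1A4 between vehicle groups, and from -0.0936 to 0.000393 for the log2 ratio of SLC7A5 to SLC3A2 in BON-1 cells; none of these was called.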
